A study of Mus musculus with 6 samples.

Results

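The well-expressed long noncoding RNAs (lncRNAs) of mouse liver natural killer (NK) cells were taken from the deposited gene expression table as every row of gene type lncRNA with a TPM of at least 5 in all 6 libraries (TPM is the share of a library's transcripts, corrected for gene length). Of 9949 lncRNA rows among 55414 rows in all, 180 met the rule, 3564 others had at least 1 read in some library and 6205 were at 0 in all 6. The members were chosen by these TPM values, so their levels are given as a description with no test. The rule used the 6 libraries alike and did not use the difference between the groups.

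The libraries were SMART-seq mRNA libraries of liver NK cells from wild-type mice. In the control group (PBS, n = 3) the labels give the treatment PBS, and in the metformin group (n = 3) they give metformin at 200 mg/kg for 3 days, both at Day 3. The labels give no age, sex or strain, no sort or gate for the NK cells, and do not say whether a library came from 1 animal or from pooled animals. Metformin is an oral glucose-lowering biguanide, and the series title places the comparison in the setting of TRAIL-mediated antitumour activity of these cells.

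The term lncRNA covers transcripts longer than short regulatory RNAs that carry no long annotated open reading frame. Some act in the nucleus as architectural RNAs, among them Malat1 at nuclear speckles, Neat1 in paraspeckles and Xist on the inactive X chromosome. Others are mainly carriers of small RNAs: their introns or exons are processed into small nucleolar RNAs (snoRNAs), which guide chemical modification of ribosomal RNA, or into microRNAs. Many are transcribed next to or across a protein-coding gene, and a few of those act on that neighbour, as Chaserr does on Chd2.

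Inside the members, 16 mature microRNAs from 9 microRNA genes were found in RefSeq by position and name, with 15 different seeds (bases 2 to 8). The sequences of 3 host lncRNAs of interest in lymphocytes are shown because the host transcript, not the mature microRNA, is what these libraries measured. Mir142hg carries miR-142, a microRNA restricted to blood cells; Dleu2 carries miR-15a and miR-16, which target Bcl2; Ftx lies beside Xist and carries miR-374b and miR-421. Seeds are in capitals.
mmu-miR-142a-5p: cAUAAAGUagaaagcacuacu
mmu-miR-142a-3p: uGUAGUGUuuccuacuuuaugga
mmu-miR-15a-5p: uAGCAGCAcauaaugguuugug
mmu-miR-16-5p: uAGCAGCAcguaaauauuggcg
mmu-miR-374b-5p: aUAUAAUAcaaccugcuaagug
mmu-miR-421-5p: cUCAUUAAauguuuguugaau
In GRCm38.p6 these lie at chr11:87756867-87756887, plus strand and chr11:87756903-87756925, plus strand for the miR-142a arms, and at chr14:61632075-61632096, minus strand and chr14:61631936-61631957, minus strand for miR-15a and miR-16. The Ftx pair lies at chrX:103573112-103573133, minus strand and chrX:103572966-103572986, minus strand. The miR-15a and miR-16 sequences share the seed AGCAGCA, the only seed held by more than 1 of the 16.

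The snoRNA host genes are known for transcripts that begin within a run of pyrimidines, the terminal oligopyrimidine start that ties translation to growth signals. The 20 bases before and the first 20 bases of RefSeq start sites are shown for 6 members with a snoRNA row inside. Capitals mark a run of at least 5 pyrimidines (C or T) that lies within 5 bases of the start.
Snhg1: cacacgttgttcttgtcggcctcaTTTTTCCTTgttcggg
Gas5: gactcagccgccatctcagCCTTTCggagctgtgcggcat
Snhg8: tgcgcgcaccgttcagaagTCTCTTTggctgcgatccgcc
Snhg9: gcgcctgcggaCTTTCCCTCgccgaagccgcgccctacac
2410006H16Rik: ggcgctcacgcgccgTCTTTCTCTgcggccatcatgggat
AI506816: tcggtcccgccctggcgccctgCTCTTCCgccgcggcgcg
These windows are chr19:8723467-8723506, plus strand, chr1:161035146-161035185, plus strand, chr3:123508317-123508356, minus strand, chr17:24719946-24719985, minus strand, chr11:62602857-62602896, plus strand and chr5:23712648-23712687, minus strand, in that order (GRCm38.p6). Such a run was present in 8 of 14 windows of the 12 snoRNA hosts that had a RefSeq start (57.1%). It was present in 50 of 131 windows over the 110 members with a RefSeq start (38.2%) and in 32.9% of all 32851 RefSeq windows. The windows of Snhg5, Snhg15, Snhg16 and Zfas1 held no such run, nor did a second RefSeq start window each of Gas5 and Snhg17, so Gas5 is shown by the one of its 2 windows that held a run.

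The members made up a small part of the RNA, and 2 of them made up most of that part. They held between 1.64% and 1.79% of all TPM in the PBS libraries and between 1.71% and 2.19% in the metformin libraries, which was 87.1 to 89.8% of the TPM of all lncRNA rows. AW112010 and Malat1 together held 68.6 to 73.4% of the members' TPM. Below these 2, levels dropped steeply: 10 members had a mean between 100 and 1000 TPM, 14 between 50 and 100, 45 between 20 and 50, 60 between 10 and 20, and 49 between 5 and 10. The median member had a mean of 15.2 TPM, against 37.9 TPM for the 8650 protein-coding rows that met the same threshold. The members were shorter than those rows, with a median length in the table of 1671.5 bases against 3207 bases.

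The threshold cut through a continuum. The 3 members nearest above it by their lowest library were B130055M24Rik at 5.07 TPM, Gm16973 at 5.08 TPM and Gm26532 at 5.10 TPM, and the 3 lncRNAs nearest below it were Gm16062 at 4.91 TPM, Gm10366 at 4.88 TPM and Gm43079 at 4.86 TPM. A further 18 lncRNAs met the threshold in the 3 PBS libraries only and 22 in the 3 metformin libraries only. Members lay on every autosome and on X and Y, with 18 on chromosome 17, 14 each on chromosomes 6 and 11, 5 on X and 1 on Y.

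AW112010 was the most abundant lncRNA and ranked 6th among all genes by mean TPM. It is an inflammation-induced transcript of immune cells that was annotated as noncoding and from which a protein has been found to be translated. Its PBS libraries held 8423, 8649.9 and 8062 TPM and its metformin libraries 7646, 7628 and 8881 TPM, so the groups overlapped. In CPM, the library-scaled share of reads with no length correction and the scale of every fold change here, it was at 2113 ± 125 in PBS and 2319.6 ± 326 in metformin (SD, n = 3 each). The fitted log2 difference was 0.13 (SE 0.12) and 0.0081 without metformin 3, and it turned to -0.060 on the log2(TPM + 1) scale and to -0.145 once the trend with gene length was removed.

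Malat1, the nuclear speckle RNA, ranked 12th among all genes. It was at 3831, 2963 and 4551 TPM in PBS and at 4082, 4829 and 7220.4 TPM in metformin. One library, metformin 3, stood well above the rest, and the other 5 overlapped. The log2 difference in CPM was 0.53 (SE 0.26; edgeR adjusted p = 0.516), and 0.16 without metformin 3.

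Of the next members by level, Gm36723 is described with the treatment below. Gm19585, an intergenic lncRNA of lymphocytes whose nearest protein-coding start is that of Satb1 at 153 kb, was at 295, 326 and 296 TPM in PBS and at 329.8, 375 and 407 TPM in metformin; every metformin library was above every PBS library. Gas5, a growth-arrest associated snoRNA host, was at 205, 201.5 and 214 TPM in PBS and at 199.7, 207 and 240.4 TPM in metformin, with overlapping groups. Chaserr, known for holding down the chromatin remodeller gene Chd2 beside it, was at 200.0, 177.5 and 186 TPM in PBS and at 191, 206.5 and 224 TPM in metformin, again overlapping.

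Gm37401, which starts 630 bases from Gpx1 on the other strand, was at 197, 162 and 171 TPM in PBS and at 249.8, 180.0 and 206 TPM in metformin. Gm11175, which lies across Jund on the other strand, was at 134.6, 97.4 and 130.01 TPM in PBS and at 176, 142 and 127 TPM in metformin. The groups of both overlapped in TPM. In CPM those of Gm37401 overlapped, and every metformin library of Gm11175 was above every PBS library. The log2 fold change was 0.46 for Gm37401 (SE 0.19, edgeR adjusted p = 0.476) and 0.46 for Gm11175 (SE 0.20, edgeR adjusted p = 0.478). With the length trend removed these were -0.067 and 0.097. The sources used here do not say how the counting treated strand, so reads of a lncRNA and of an opposite gene across it cannot be told apart. Gm2682 was at 107, 112 and 118 TPM in PBS and at 95.0, 108 and 121 TPM in metformin.

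AI506816, which has a snoRNA row inside, was the only one of the 12 most abundant members whose metformin libraries all lay below its PBS libraries. Its PBS libraries held 154.5, 149.9 and 149.7 TPM and its metformin libraries 118, 126 and 99.0 TPM, with no overlap. Neat1, the scaffold of paraspeckles, was at 108, 119.98 and 149.7 TPM in PBS and at 128, 169.5 and 95.5 TPM in metformin, so both its highest and its lowest library were treated ones. Gm47283 is listed on chromosome Y and was at 173, 188 and 179.6 TPM in PBS and at 135, 161 and 267 TPM in metformin. The Y genes Kdm5d, Eif2s3y, Uty and Ddx3y reached at most 0.025 TPM in any library, so the source of the Gm47283 reads is uncertain.

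**Figure D1:**
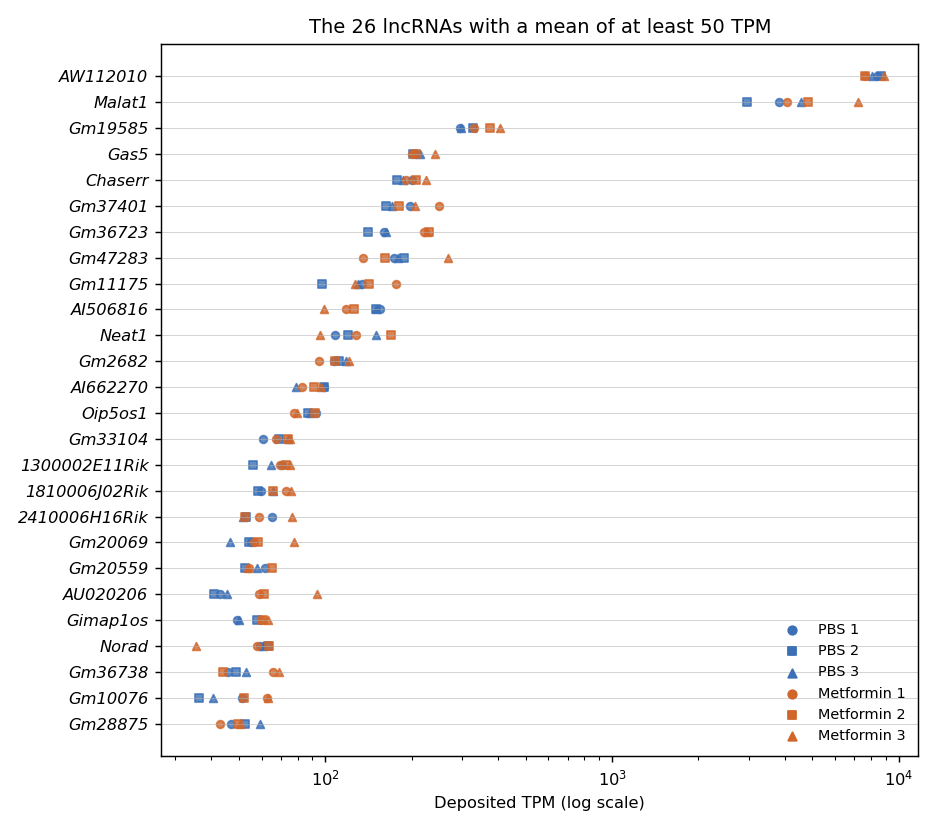
Deposited TPM (log axis) in each of the 6 libraries for the 26 members with a mean of at least 50 TPM, PBS in blue and metformin in orange, with 1 symbol shape for each replicate number. The lowest library of Malat1 is at 2963 TPM, below every library of AW112010, and the next member, Gm19585, lies between 295 and 407 TPM.

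The coefficient of variation of TPM over the 6 libraries had a median of 17.2% and ran from 4.99% (4833438C02Rik) to 50.6% (Gm43126), and in 63 of the 180 members the highest library was less than 1.5 times the lowest. Only 3 members had a highest library more than 3 times the lowest: Gm20536 at 3.19 times, Gm43126 at 3.53 times and Snhg9 at 6.21 times. The depth behind these values differed widely. The estimated reads of a member in its lowest library ranged from 3 to 49848, with a median of 168, and 28 members were under 50 reads there. For the 41 members of at most 700 bases the median was 42 reads, against 366 reads for those over 2000 bases. Snhg9, a row of 183 bases, reached its 9.28 TPM in PBS 2 with the 3 reads that were the lowest count of any member.

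All 180 members entered the test of metformin against PBS, and edgeR's quasi-likelihood test called none of them at an adjusted p of 0.05, as it called none of the 15527 genes tested (0%). At an unadjusted p under 0.05, 24 members were higher in metformin (13.3%) and 1 was lower (0.556%), where 5.29% of all genes tested were higher and 5.08% lower. The 3 metformin libraries all lay above the 3 PBS libraries in 38 members (21.1%; 9.49% of all genes) and all below in 6 members (3.33%; 9.63% of all genes). The fitted difference was above 0 in 151 of the 180 members (83.9%), against 50.9% of all genes. The members' median log2 fold change was 0.21, against 0.0053 over all genes tested, 0.16 over the 818 other lncRNAs tested and -0.024 over protein-coding genes. Of the other lncRNAs, 517 of 818 were above 0 (63.2%). The size of the members' shift depended on the scale. On log2(TPM + 1) 15 members were higher and 5 lower at that p, with a median of 0.066; with the trend on gene length removed 13 were higher and 3 lower, with a median of 0.082; and with lncRNA rows only 12 were higher and 7 lower, with a median of 0.021.

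**Figure D2:**
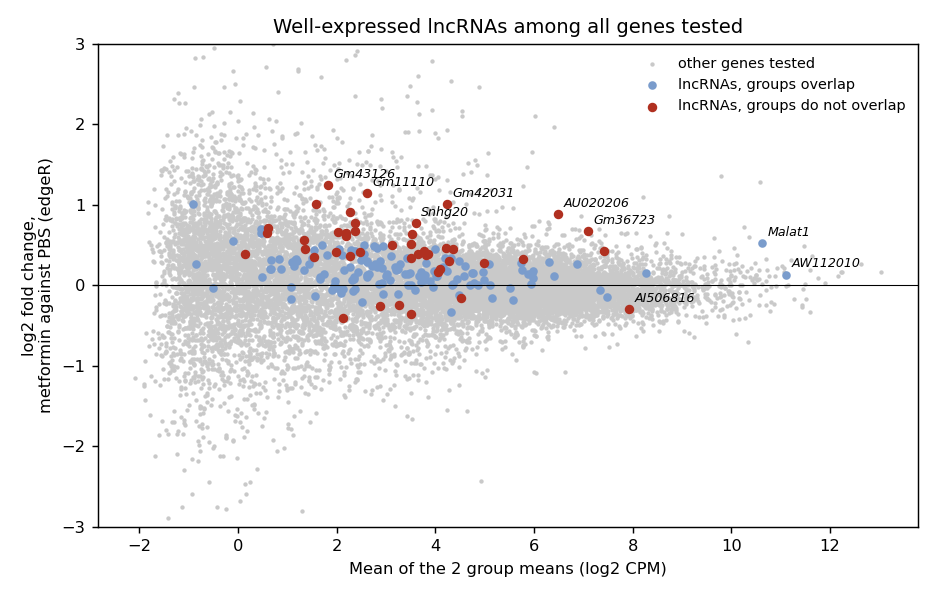
The log2 fold change of metformin against PBS (edgeR) against the mean level in log2 CPM for all genes tested (grey) and the 180 members, blue where the groups overlap and red where they do not. The vertical axis ends at 3 in either direction, and 151 of the 180 members lie above 0.

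DESeq2, run as an alternative on the same reads, called 6 members at an adjusted p of 0.05 among 299 genes (1.93% of those tested by edgeR): Gm36723, Gm42031, Gm11110, Snhg20, AU020206 and Gm43042. All 6 were higher in metformin in every library.

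Gm36723 had the smallest p of the members. This lncRNA lies on chromosome 12 with the nearest protein-coding start, that of Id2, at 206.8 kb; Id2 encodes a transcriptional regulator that NK cells need for their development. Its PBS libraries held 107, 96.6 and 110.5 CPM and its metformin libraries 160.3, 160.2 and 182 CPM, without overlap. The log2 fold change was 0.67 (SE 0.10), with an edgeR adjusted p of 0.168 and a DESeq2 adjusted p of 8.4e-06. Over every alternative it stayed between 0.48 and 0.72.

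Gm42031, on chromosome 8 and 9.19 kb from the start of Zfp791, differed more in size. Its PBS libraries were at 14.7, 11.1 and 11.8 CPM and its metformin libraries at 29.1, 22.1 and 24.6 CPM, which gave a fitted log2 difference of 1.01 (SE 0.17; adjusted p by edgeR 0.193; DESeq2 adjusted p = 1.1e-04). The lowest treated library was well above the highest control. Without metformin 3 its log2 fold change was 1.03.

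The start regions of AW112010, the most abundant member, and of the pair with the smallest p, Gm36723 and Gm42031, are shown because these are the lncRNAs the level and treatment results turn on. Each runs from 250 bases before the RefSeq start to 50 bases after it (GRCm38.p6), with every CG in capitals, as is a TATAAA in Gm42031.
AW112010: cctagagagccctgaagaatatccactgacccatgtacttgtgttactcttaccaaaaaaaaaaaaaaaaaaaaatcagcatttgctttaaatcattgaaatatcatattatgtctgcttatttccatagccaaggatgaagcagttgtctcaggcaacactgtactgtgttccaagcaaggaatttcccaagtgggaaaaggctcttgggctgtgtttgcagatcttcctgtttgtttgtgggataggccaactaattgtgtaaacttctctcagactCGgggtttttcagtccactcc
Gm36723: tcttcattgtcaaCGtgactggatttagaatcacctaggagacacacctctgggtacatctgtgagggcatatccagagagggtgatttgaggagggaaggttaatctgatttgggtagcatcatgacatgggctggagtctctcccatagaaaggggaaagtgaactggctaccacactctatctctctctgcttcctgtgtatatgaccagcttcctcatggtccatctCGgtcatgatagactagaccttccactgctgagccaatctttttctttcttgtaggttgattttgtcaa
Gm42031: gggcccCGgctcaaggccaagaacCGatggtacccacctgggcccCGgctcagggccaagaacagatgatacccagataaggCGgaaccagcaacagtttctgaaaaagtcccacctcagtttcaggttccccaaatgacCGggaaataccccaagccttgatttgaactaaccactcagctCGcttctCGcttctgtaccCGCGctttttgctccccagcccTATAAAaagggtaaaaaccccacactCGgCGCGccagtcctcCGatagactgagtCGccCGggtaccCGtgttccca
They lie at chr19:11050517-11050816, minus strand, chr12:25355651-25355950, plus strand and chr8:85131765-85132064, minus strand. AW112010 had 1 CG and a GC content of 40%, Gm36723 had 2 and 46%, and Gm42031 had 16 and 56.7%. The median member window held 14 CG at 55% GC, and the median of all RefSeq windows 7 at 52.7%. The AW112010 and Gm36723 windows were thus poor in CG for this set. Windows were matched to members by symbol, while distances to protein-coding genes use the deposited positions. Whether a RefSeq start is the start that the deposited row gives was not checked. Of the motifs searched on both strands, the ETS core CCGGAAG was in 32 of 131 member windows (24.4%; 8.86% of all windows), the RUNX site TGTGGTT in 12 (9.16%; 5.27%), the E-box CACGTG in 17 (13.0%; 7.15%), TATAAA in 18 (13.7%; 13.6%) and the STAT site TTCNNNGAA in 4 (3.05%; 8.30%). The Gm19585 window held the RUNX letters and the Snhg20 window the ETS letters. The T-box letters AGGTGTGA were in none of the member windows and in 1.28% of all windows.

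AU020206, 66.2 kb from the start of Klhl25, had 3 nearly equal controls and a spread treated group. It was at 61.9, 63.5 and 63.9 CPM in PBS and at 86.8, 95.5 and 169 CPM in metformin. Its log2 fold change was 0.89 (SE 0.23; edgeR adjusted p = 0.308; DESeq2 adjusted p = 0.012) and 0.52 without metformin 3, whose value was the highest by far.

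Gm11110 starts 617 bases from Tnfsf9, the gene of the costimulatory ligand 4-1BBL, on the opposite strand. It was at 3.09, 4.64 and 3.63 CPM in PBS and at 7.75, 7.34 and 10.1 CPM in metformin, which gave a fitted log2 difference of 1.15 (SE 0.26; adjusted p by edgeR 0.263; DESeq2 adjusted p = 0.0085). The groups did not overlap. Tnfsf9 itself was at 8.77 ± 1.46 CPM in PBS and 7.62 ± 1.21 CPM in metformin (SD, n = 3 each), within its spread.

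Gm43042 was at 9.31, 9.56 and 8.27 CPM in PBS and at 12.4, 14.5 and 15.3 CPM in metformin (log2 fold change 0.64, SE 0.17; edgeR adjusted p = 0.312; DESeq2 adjusted p = 0.04997). Gm11707 was at 1.99, 1.97 and 1.98 CPM in PBS and at 3.63, 3.88 and 4.47 CPM in metformin (log2 fold change 1.01, SE 0.27; 0.60 with the length trend removed). The controls of Gm11707, on only 54, 48 and 60 reads, hardly differed, and all 3 treated libraries were above them. Its adjusted p was 0.311 by edgeR and 0.075 by DESeq2. Gm43126, which lies across the cyclin gene Ccnd2 on the other strand, had the highest fitted change of the members. It was at 2.83, 1.68 and 1.81 CPM in PBS and at 4.42, 3.30 and 7.32 CPM in metformin (log2 fold change 1.25, SE 0.39; 0.80 with the length trend removed). The adjusted p of Gm43126 was 0.376 by edgeR and 0.103 by DESeq2. Ccnd2 was at 998 ± 124 and 1136 ± 144 CPM (log2 fold change 0.19, SE 0.13; 0.12 without metformin 3).

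Gm13012 lies across Ece1, the endothelin-converting enzyme gene, on the other strand, and the pair leaned in opposite directions. The lncRNA was at 4.09, 2.18 and 3.76 CPM in PBS and at 5.82, 5.72 and 7.27 CPM in metformin (log2 fold change 0.91, SE 0.30; edgeR adjusted p = 0.405). Ece1 was at 63.7 ± 7.92 CPM in PBS and 46.7 ± 16.4 CPM in metformin (log2 fold change -0.45, SE 0.25; -0.19 without metformin 3). Gm19585 completed the 10 named higher members, at 149, 153 and 138 CPM in PBS and 169.5, 189 and 233 CPM in metformin (log2 fold change 0.43, SE 0.13; edgeR adjusted p = 0.366; 0.28 without metformin 3). The 24 members higher at an unadjusted p under 0.05 had log2 fold changes between 0.33 and 1.25.

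**Figure D3:**
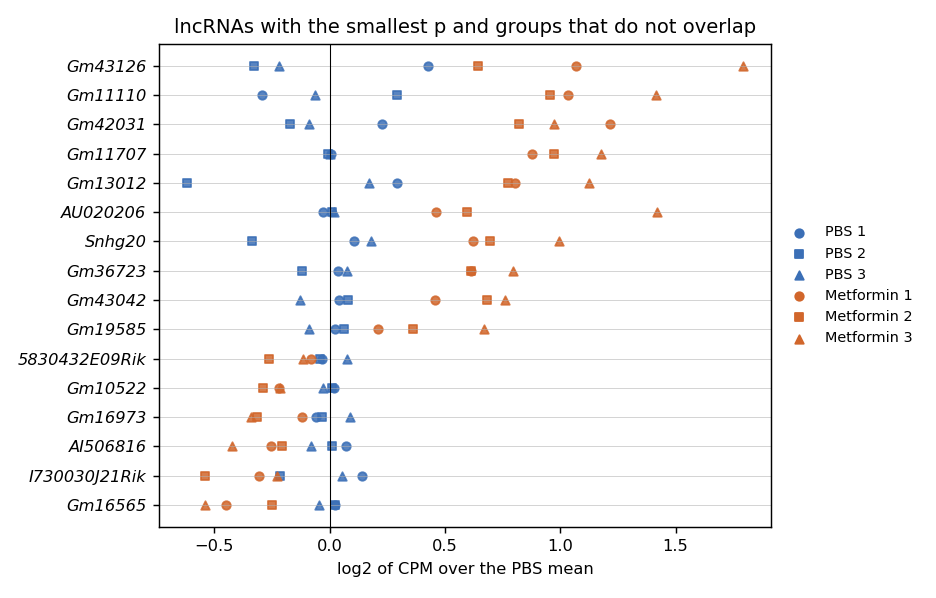
Log2 of each library's CPM over the mean of the PBS libraries for the 10 higher and the 6 lower members with the smallest p among those whose groups do not overlap. Metformin 3 (orange triangles) is the highest library in 9 of the 10 higher members, and AU020206 shows 3 controls lying together.

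In the other direction 6 members were lower without overlap. AI506816 was at 282, 270.8 and 254 CPM in PBS and at 226, 233 and 201 CPM in metformin (log2 fold change -0.29, SE 0.098; edgeR adjusted p = 0.413; DESeq2 adjusted p = 0.136). It was the one member lower at an unadjusted p under 0.05. I730030J21Rik, with a start 3.36 kb from that of the glycosyltransferase gene Galnt6 on the same strand, was at 14.03, 10.96 and 13.2 CPM in PBS and at 10.3, 8.76 and 10.9 CPM in metformin (log2 fold change -0.35, SE 0.18). Galnt6 was also below its controls in every treated library, at 209.7 ± 16.6 CPM in PBS and 150.1 ± 40.4 CPM in metformin (log2 fold change -0.48, SE 0.19; edgeR adjusted p = 0.463; -0.28 without metformin 3).

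Gm16565 overlaps Cd247, the gene of the CD3 zeta signalling chain used by the NK receptor NKp46, on the same strand. Gm16565 was at 5.04, 5.05 and 4.81 CPM in PBS and at 3.63, 4.17 and 3.42 CPM in metformin (log2 fold change -0.41, SE 0.23), and Cd247 at 189 ± 5.68 and 164 ± 10.1 CPM (log2 fold change -0.21, SE 0.091; edgeR adjusted p = 0.478). Both were below control in every treated library, and reads of overlapping genes can be split by the counting. Gm10522, 5.40 kb from the Fc receptor gene Fcgr2b, was at 10.4 ± 0.183 and 8.79 ± 0.245 CPM (log2 fold change -0.24, SE 0.17; -0.40 with the length trend removed). Gm16973 was at 7.94 ± 0.438 and 6.65 ± 0.572 CPM (log2 fold change -0.25, SE 0.19), while Mphosph8 across it on the other strand was at 19.9 ± 0.714 and 23.3 ± 4.47 CPM (log2 fold change 0.23, SE 0.16; 0.073 without metformin 3). 5830432E09Rik, across the phosphatase gene Ptpre, was at 24.2 ± 1.10 and 21.8 ± 1.42 CPM (log2 fold change -0.15, SE 0.12; -0.094 with the length trend removed). The smallest edgeR adjusted p of these 6 was the 0.413 of AI506816.

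By position, 14 members had snoRNA rows inside them (40 rows), 2 had small Cajal body RNA rows and 7 had microRNA rows (9 rows), 21 members in all. These rows themselves were nearly silent in mRNA libraries: 35 of the 40 snoRNA rows and 8 of the 9 microRNA rows were listed at 0 in all 6 libraries. The levels below are therefore those of the host transcripts and say nothing of the small RNAs.

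Of the 14 members with a snoRNA row inside, none was higher and 1, AI506816, was lower at an unadjusted p under 0.05 (7.14%, against 5.08% of all genes). The list of snoRNA host lncRNAs, which leaves out AI506816, had 13 members, of which 1 was higher (7.69%, against 5.29% of all genes) and none lower. The list's median log2 fold change was 0.24 (0.21 over all members), 0.13 with the length trend removed and 0.15 without metformin 3. The higher one was Snhg20, which had no snoRNA row inside but a small Cajal body RNA row and that of miR-6516. It was at 9.65, 7.10 and 10.2 CPM in PBS and at 13.8, 14.5 and 17.8 CPM in metformin, without overlap (log2 fold change 0.78, SE 0.20; edgeR adjusted p = 0.308; DESeq2 adjusted p = 0.037). The 12 others all overlapped between the groups. Gas5, which had 10 snoRNA rows inside, was at 50.6 ± 3.66 and 57.8 ± 6.11 CPM (log2 fold change 0.19, SE 0.11; 0.10 without metformin 3 and -0.0056 when lncRNA rows alone set the scale).

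Snhg5 was at 22.4 ± 4.66 and 26.4 ± 5.79 CPM (log2 fold change 0.24, SE 0.20; 0.037 without metformin 3) and Snhg17 at 16.4 ± 2.74 and 19.2 ± 1.68 CPM (log2 fold change 0.23, SE 0.17; 0.12 without PBS 1). Zfas1, which starts 81 bases from Znfx1 in the opposite direction, was at 6.55 ± 1.06 and 8.07 ± 0.960 CPM (log2 fold change 0.30, SE 0.22; 0.20 without metformin 3 and 0.023 with the length trend removed). Snhg6 was at 2.49 ± 0.171 and 3.16 ± 0.595 CPM (log2 fold change 0.34, SE 0.29; 0.20 without metformin 3 and 0.082 with the length trend removed) and Snhg8 at 2.68 ± 0.866 and 3.804 ± 1.41 CPM (log2 fold change 0.50, SE 0.39; 0.15 without metformin 3). The lowest in reads, Epb41l4aos and Snhg9, had the widest errors: 0.56 (SE 0.50) and 1.01 (SE 0.66) on the log2 scale. With the length trend removed these were 0.14 and 0.31. Snhg15 (15.5 ± 1.06 and 15.3 ± 0.997 CPM), Snhg1 (7.22 ± 1.70 and 7.32 ± 1.63 CPM), Snhg16 (5.85 ± 0.634 and 6.41 ± 1.42 CPM) and Snhg3 (4.94 ± 0.573 and 5.23 ± 0.894 CPM) differed by less than their standard errors.

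Snhg3 shares its strand with Rcc1, the chromatin-bound exchange factor gene, and their starts lie 81 bases apart. Rcc1 was at 34.7, 24.8 and 23.2 CPM in PBS and at 18.8, 16.2 and 19.7 CPM in metformin, without overlap (log2 fold change -0.60, SE 0.18; edgeR adjusted p = 0.363), while Snhg3 was at 5.45, 5.05 and 4.32 CPM in PBS and at 4.20, 5.72 and 5.78 CPM in metformin. Of 52 protein-coding snoRNA hosts 3 were higher and 7 lower at an unadjusted p under 0.05, with a median of 0.021. Those are shares of 5.77% and 13.5%, beside 5.29% and 5.08% of all genes, and the median was -0.064 with the length trend removed and -0.077 without metformin 3. Rpl37, a ribosomal protein gene, was at 59.7 ± 0.503 and 82.8 ± 12.3 CPM (log2 fold change 0.47, SE 0.12; edgeR adjusted p = 0.308; DESeq2 adjusted p = 0.045; log2 fold change 0.24 with the length trend removed). Of 19 proteins of the snoRNA particle and its assembly none was higher and 3 were lower at that p (15.8%), with a median of 0.019, and -0.087 with the length trend removed. Nop58, a core protein of the particle, had a log2 fold change of -0.37 (SE 0.13) and its assembly factor Nolc1 one of -0.30 (SE 0.12); the edgeR adjusted p was 0.419 and 0.466. Nop58 was at -0.23 with the length trend removed and Nolc1 at -0.20 without metformin 3.

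Many snoRNA host transcripts are also removed by nonsense-mediated decay after splicing. Of 17 factors of that pathway none was higher and 3 were lower at an unadjusted p under 0.05, a share of 17.6% beside 5.08% of all genes. Their median of -0.067 became -0.0073 with the length trend removed and -0.011 without metformin 3. The release factor gene Gspt1 was at 105.7 ± 8.22 and 85.8 ± 1.12 CPM (log2 fold change -0.30, SE 0.095; edgeR adjusted p = 0.378). The exonuclease gene Xrn1 was at 84.1 ± 4.01 and 67.1 ± 9.72 CPM (log2 fold change -0.33, SE 0.12; edgeR adjusted p = 0.455; -0.20 with the length trend removed).

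The list of microRNA host lncRNAs, drawn up by name, had 4 members: Mir142hg, Dleu2, Ftx and Mirt1. Mirt1 had no microRNA row inside. The list leaves out Snhg20, given above, and Gm17494, 2900076A07Rik and Gm10505, which each had one. The list's median was 0.33, or 0.20 without metformin 3. Of its 4 members 1, Dleu2, was higher at an unadjusted p under 0.05 (25%, against 5.29% of all genes). It was at 17.5, 16.1 and 18.2 CPM in PBS and at 18.4, 24.1 and 28.1 CPM in metformin; its lowest treated library was just above its highest control (log2 fold change 0.45, SE 0.17; edgeR adjusted p = 0.459; 0.29 without metformin 3). Mir142hg, a row of only 269 bases, was at 1.07, 0.944 and 1.12 CPM in PBS and at 1.62, 1.04 and 2.45 CPM in metformin (log2 fold change 0.70, SE 0.44; 0.34 without metformin 3 and 0.062 with the length trend removed), so the groups overlapped. Mirt1 was at 60.7 ± 13.8 and 64.7 ± 7.02 CPM. Of 16 microRNA processing genes, Tnrc6a, a partner of Argonaute in silencing, was at 41.2 ± 2.16 and 50.6 ± 2.57 CPM (log2 fold change 0.29, SE 0.099; edgeR adjusted p = 0.414), and no other was under that unadjusted p (6.25% higher, against 5.29% of all genes). The log2 fold change of Tnrc6a was 0.46 with the length trend removed. Drosha, the nuclear enzyme that cuts microRNA precursors out of such hosts, was at 49.2, 49.5 and 49.7 CPM in PBS and at 45.2, 41.1 and 22.9 CPM in metformin (log2 fold change -0.44, SE 0.22; edgeR adjusted p = 0.528; -0.21 without metformin 3).

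**Figure D4:**
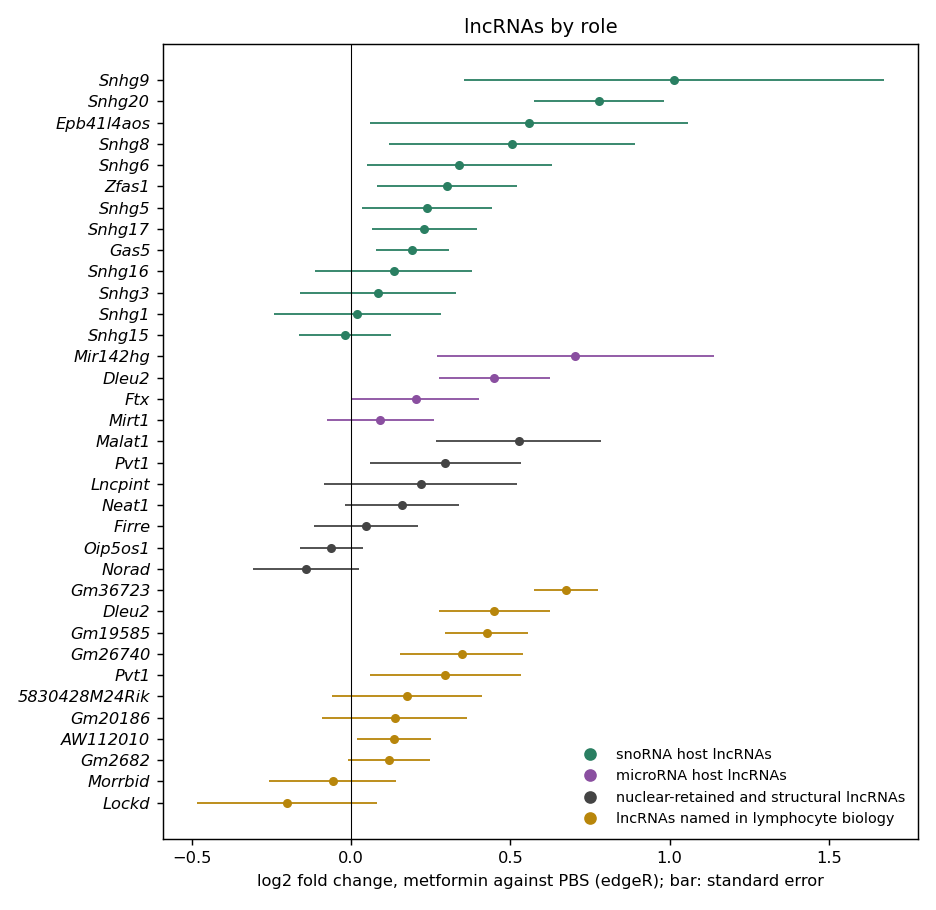
Log2 fold change of metformin against PBS (points) with its standard error (bars) from edgeR for the members on the role lists, coloured by list. Of the 13 members on the snoRNA host list, 12 lie above 0, and the widest bar is that of Snhg9 (SE 0.66).

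Of the 7 nuclear-retained and structural lncRNAs none was under an unadjusted p of 0.05. The groups overlapped in all 7. Norad, a cytoplasmic RNA that sequesters Pumilio proteins, was at 189, 192 and 177.5 CPM in PBS and at 184, 199 and 124 CPM in metformin, where metformin 3 alone was low. Oip5os1, known as Cyrano and for the decay of miR-7, was at 166 ± 10.2 and 159 ± 11.7 CPM, and Neat1 at 294 ± 48.7 and 328 ± 71.7 CPM. Firre was at 12.8 ± 0.891 and 13.3 ± 1.43 CPM and Lncpint at 6.995 ± 2.28 and 8.14 ± 1.65 CPM. Pvt1, beside Myc, was at 5.53 ± 0.490 and 6.79 ± 1.40 CPM (log2 fold change 0.30, SE 0.24; 0.11 without metformin 3).

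The proteins that gather on Neat1 and around Malat1 were followed as lists, and none was called. Of 15 paraspeckle proteins 1 was lower at an unadjusted p under 0.05 (6.67%, against 5.08% of all genes), with a median of -0.029 (0.017 with the length trend removed): Hnrnpa1 was at 66.2 ± 3.77 and 55.5 ± 4.54 CPM (log2 fold change -0.26, SE 0.10; edgeR adjusted p = 0.466). Cpsf6 followed at -0.21 (SE 0.091; -0.055 with the length trend removed). Of 14 nuclear speckle proteins none was under that p, with a median of -0.046 (-0.0096 with the length trend removed). The 2 with the smallest p were the splicing factors Srsf1 at -0.21 (SE 0.11; -0.078 with the length trend removed) and Srsf5 at 0.21 (SE 0.11; 0.13 without metformin 3).

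Xist and Ftx were the X inactivation centre members. Xist was at 100.5, 108 and 109 CPM in PBS and at 91.7, 127 and 165 CPM in metformin (log2 fold change 0.27, SE 0.19; 0.038 without metformin 3), so its treated libraries spread to either side of the controls. Ftx was at 8.83 ± 1.21 and 10.2 ± 1.33 CPM (log2 fold change 0.20, SE 0.20; 0.10 without metformin 3). A list of 17 genes held those of Xist partner proteins and others such as Rlim. None was higher and 3 were lower at an unadjusted p under 0.05, a share of 17.6% beside 5.08% of all genes. Their median of -0.17 was -0.075 with the length trend removed and -0.090 without metformin 3. Rbm15, which recruits the m6A methylation complex to Xist, was at 39.0, 35.0 and 33.3 CPM in PBS and at 25.96, 26.2 and 20.2 CPM in metformin, without overlap (log2 fold change -0.57, SE 0.14; edgeR adjusted p = 0.294; DESeq2 adjusted p = 0.032). Rlim, a ubiquitin ligase gene of the X inactivation centre, was at 83.9 ± 3.84 and 62.8 ± 15.1 CPM (log2 fold change -0.42, SE 0.17; edgeR adjusted p = 0.466; -0.26 without metformin 3).

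Of the 11 members named in lymphocyte biology, 3 were higher at an unadjusted p under 0.05 (Gm36723, Gm19585 and Dleu2) and none lower. That is 27.3%, beside 13.3% of all members and 5.29% of all genes. Over the 20 tested lncRNAs of the whole list, members or not, it was 15%. The list was chosen with earlier results of these data known, so its share is no independent result. The median of its 11 members, 0.18, was 0.054 with the length trend removed, 0.11 without metformin 3 and -0.0066 on log2(TPM + 1). Gm26740 was at 17.6 ± 3.39 and 22.4 ± 4.15 CPM (log2 fold change 0.35, SE 0.19; 0.19 without metformin 3). Morrbid, which restrains the death gene Bcl2l11 in short-lived myeloid cells, was at 13.0, 10.9 and 13.1 CPM in PBS and at 10.3, 10.6 and 14.6 CPM in metformin, and the groups overlapped. Lockd, downstream of the cell cycle inhibitor gene Cdkn1b, was at 6.07 ± 1.40 and 5.28 ± 1.23 CPM, Gm20186 at 6.04 ± 1.22 and 6.64 ± 0.245 CPM, 5830428M24Rik at 14.8 ± 1.96 and 16.7 ± 5.29 CPM, and Gm2682 at 81.4 ± 2.79 and 88.4 ± 14.5 CPM.

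The members' places beside protein-coding genes were compared with those of other lncRNAs. In 43 of the 180 (23.9%) the start lay within 1 kb of a protein-coding start on the opposite strand, whether or not the genes overlapped. Of the remaining members, 12 (6.67% of the 180) overlapped a protein-coding gene on their own strand. A further 47 (26.1%) overlapped one on the opposite strand only, and 78 (43.3%) overlapped none. Of the 3564 other lncRNAs with a read, 24.5%, 8.84%, 34.7% and 32.0% fell in these classes, and of the 6205 without one 6.64%, 3.85%, 20.4% and 69.1%. An opposite-strand start within 1 kb was thus more frequent among lncRNAs with reads, members or not. Whether such starts point away from each other was not asked. The median log2 fold change was 0.17, 0.19, 0.33 and 0.15 in the 4 classes of members, in that order. At an unadjusted p under 0.05, 2 of 43 (4.65%), none of 12, 10 of 47 (21.3%) and 12 of 78 (15.4%) were higher, where 5.29% of all genes were, and 1 of the 78 was lower. Of the 6 members called by DESeq2, 1 was in the first class and 5 overlapped no protein-coding gene. The 47 members of the class that overlaps a gene on the opposite strand only had a median length of 1067 bases. Their protein-coding partners had a median log2 fold change of 0.041.

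Gene length moved with the difference between the groups in all kinds of gene. The 41 members of at most 700 bases had a median log2 fold change of 0.39, the 71 of over 700 to 2000 bases one of 0.22 and the 68 longer ones one of 0.15; for protein-coding genes these medians were 0.35, 0.13 and -0.066. With a trend on length removed in each library, the members' medians were -0.019, 0.028 and 0.17, and 114 members rather than 151 were above 0. Without metformin 3 they were 0.32, 0.14 and 0.10. On the log2(TPM + 1) scale, where the median of all genes tested was -0.096, the members' median was 0.066. As fitted, the gap between the medians of members and protein-coding genes was narrowest in the shortest genes and widest above 2000 bases.

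**Figure D5:**
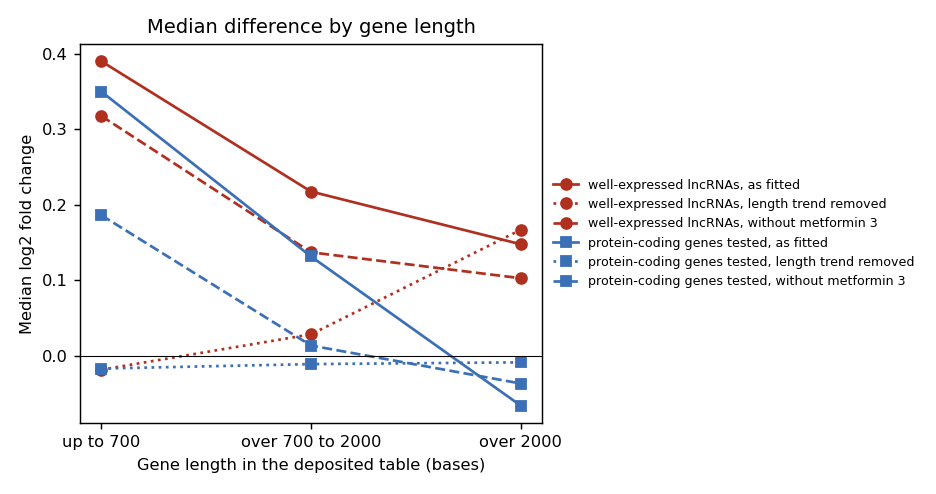
Median log2 fold change of members (red) and protein-coding genes tested (blue) in 3 bins of gene length, as fitted (solid), with the length trend removed (dotted) and without metformin 3 (dashed). As fitted, the members' median drops from 0.39 in the shortest to 0.15 in the longest genes, and that of protein-coding genes from 0.35 to -0.066.

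The members' shift was uneven over the libraries. Metformin 3 was the highest library for 98 of the 180 members, and PBS 2 the lowest for 72. The members' median deviation from their own mean was 0.25 (log2 CPM) in metformin 3, 0.038 and 0.034 in metformin 1 and 2, and -0.052, -0.18 and -0.034 in PBS 1, 2 and 3. Without metformin 3 the members' median log2 fold change was 0.14 and 14 members were higher at an unadjusted p under 0.05; without PBS 2 the median was 0.17 and 12 were higher. Metformin 3 also had the highest sum of hepatocyte markers, 681 TPM against 219 to 375 in the other libraries, and of macrophage, monocyte and dendritic cell markers, 749.6 TPM against 271 to 485. The part of these in the members' values was not tested.

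Of the 13 NK markers all were found, the lowest at a mean of 133 TPM, and they summed to 36187 to 38791 TPM in PBS and 34473 to 39583 TPM in metformin. Sums that did not overlap between the groups were those of liver ILC1 markers (9 of 9 found; 819.9 to 901 TPM in PBS, 1168 to 1244 in metformin), T cell markers (12 of 13; 1565 to 1837 and 2169 to 2403), basophil and mast cell markers (7 of 7, Ms4a2 under 1 TPM; 373 to 404 and 288 to 306) and proliferation genes (6 of 6; 107 to 206 and 70.1 to 88.1). B cell markers (739 to 1065 and 773 to 1937, Pax5 under 1 TPM) and erythroid and platelet markers (586 to 1209 and 609.97 to 1188) overlapped, as did hepatocyte (219 to 375 and 223 to 681), macrophage, neutrophil (30.3 to 48.8 and 14.9 to 110, with Ly6g and Cxcr2 under 1 TPM) and endothelial and stellate sums (60.9 to 111 and 61.7 to 69.7). A sum can rest on 1 gene. The highest mean of a single gene was 329 TPM in the basophil and mast cell list, most of that sum. It was 1063 TPM in the T cell list, 433 TPM in the liver ILC1 list and 38.3 TPM among the proliferation genes. The sums thus do not show that the genes of a list moved together. In such bulk samples a change in the share of a cell type and a change in RNA per cell cannot be told apart. The part of either in the lncRNA values was not tested. Total estimated reads were 22152167 to 30161214 per library.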

How the data were processed

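RNA of liver NK cells was measured in 3 PBS and 3 metformin libraries (SMART-seq mRNA, per the labels' protocols), with 22152167 to 30161214 estimated reads each. The authors deposited 1 table of 55414 genes with estimated counts and TPM values per library. The submitters' processing notes name DRAGEN, GRCm39 and mm10 without saying what each was used for, and the table names no build. The sources used here do not say how strand and reads that match several genes were counted.

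Estimated counts as deposited were rounded and tested with edgeR 4.0.16 (quasi-likelihood, TMM scaling, filterByExpr, R 4.3.3), metformin against PBS, with Benjamini-Hochberg adjustment over 15527 genes at a threshold of 0.05. The biological coefficient of variation was 27.3%. CPM values are after TMM scaling. DESeq2 1.42.0 and limma 3.58.1 served as alternatives. Deposited TPM values gave the membership and levels. RefSeq start windows matched 110 of 180 members by symbol. On simulated data the edgeR fit recovered 14.4% of 1.5-fold and 44.8% of 2-fold changes, and 8.19% of its calls were false. A change of that size was thus often not called. The labels do not say that libraries came from separate animals, so a p-value here reflects the spread among these libraries alone, which may be technical.

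The members and gene lists were chosen with earlier results of these data known. Named were the 12 members of highest mean TPM, up to 10 in each direction of smallest p whose groups do not overlap, role list members, protein-coding genes that overlap these or start within 5 kb, the 3 lncRNAs either side of the threshold, and for each partner list the 2 genes of smallest p. Neighbours and members whose difference was under its standard error are given by levels or left out. The genes 4833438C02Rik, Gm20536 and 2410006H16Rik were named after their values or sequences were seen.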

Additional observations from a re-analysis of the deposited data

How the results depend on the processing

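Besides the main fit, 19 alternatives were run. The number of genes called was 0 in the main fit, 299 with DESeq2, 1 with no filter on low counts, 1 with the length trend removed, 3 with a replicate block, and 0 to 1 when each library was left out (1 without metformin 3). Of the members, DESeq2 called 6, and none was called under any other alternative or when a library was left out. The members higher at an unadjusted p under 0.05 numbered 24, and 15 by limma on log2(TPM + 1) or log2(TPM + 0.1), 12 with lncRNA rows only, 13 with the length trend removed, and 12 (without PBS 2) to 22 when a library was left out. Those lower numbered 1, and 5 under each of the 3 TPM settings, 7 with lncRNA rows only, 3 with the length trend removed, and 0 to 1 when a library was left out. The members' median of 0.21 was 0.066 on log2(TPM + 1) with or without a filter, 0.073 on log2(TPM + 0.1), 0.021 with lncRNA rows only, 0.082 with the length trend removed, and 0.14 to 0.25 when a library was left out. The replicate block left that median at 0.21. The replicate numbers are shared only as numbers: deviations of same-numbered libraries correlated at 0.171, 0.0757 and 0.172, and PBS 2 correlated best with metformin 1 (0.0763).

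A fold change was followed for the 57 named genes whose difference was above its standard error. Of their 1050 values 1031 kept their direction and side of the threshold and 8 newly passed it, all with DESeq2. Genes near 0 were left out and the main fit called none, so this count favoured unchanged values. The sign turned in 11 values: AW112010 to -0.060 on each TPM scale, -0.068 with lncRNA rows only and -0.145 with the length trend removed; Gas5 to -0.0056 and Chaserr to -0.040 with lncRNA rows only; Gm37401 to -0.067 with the length trend removed; and Jund to -0.027 on each TPM scale. The cause was not tested. Named members left out of this count turned as well: over the alternatives Norad ran from -0.32 to 0.032 and Snhg3 from -0.26 to 0.21. At 1, 2, 10 or 20 TPM in all libraries the set would hold 564, 365, 100 or 55 lncRNAs. Read depth limits the short members most.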
